A study of Mus musculus with 12 samples.

Results

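Spermatozoa of the corpus epididymidis were compared directly with those of the caput, the segment just upstream, by their CpG methylation. The comparison took 6 of the 12 samples of the series, namely 3 corpus and 3 caput samples identified by their labels. Testicular spermatozoa did not enter the comparison and served, like cauda spermatozoa, to sort sites into classes or as a reference level. An alternative fit, given at the end, also included both. All samples came from untreated mice of the B6D2F1 strain with the CAG/su9-DsRed2, Acr3-EGFP transgene, aged 10 to 12 weeks. In these animals the ubiquitous CAG promoter puts a red protein into mitochondria and the acrosin construct puts a green protein into the acrosome, so that spermatozoa can be sorted by fluorescence. Each sample was sorted from pooled mice, so the spread between samples is that between pools and not between animals.

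Spermatozoa leave the testis immotile and acquire motility and the ability to fertilise during passage through the caput, corpus and cauda. Their DNA is packed with protamines and is not transcribed. Cytosines followed by guanine (CpG) can carry a methyl group, and in sperm most CpG-rich promoters are unmethylated while most other CpGs are methylated. Reduced representation bisulfite sequencing (RRBS) reads short restriction fragments after unmethylated cytosines have been converted. Methylated reads as a percentage of the coverage give the methylation of a site. The count table held 14149 CpG sites, all on a CpG of GRCm38, and the 13917 autosomal sites are described here.

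Every site had at least 10 reads in every sample. Reads over the autosomal sites numbered 633674, 852200 and 695526 in caput replicates 1, 2 and 3, with a median coverage of 30, 41 and 33 reads. They numbered 420774, 830802 and 605965 in corpus replicates 1, 2 and 3, with a median coverage of 20, 42 and 30 reads. Corpus replicate 1 was thus the shallowest sample, and a site with no methylated read at its median coverage may still carry up to 15% methylation (3 reads of the coverage). Caput replicate 1 stood apart from the other caput samples. Its mean absolute difference per site was 12.6 percentage points from caput replicate 2 and 13.2 from caput replicate 3, while those differed by 8.05 from each other. The 3 corpus pairs differed by 7.54 to 8.85 percentage points. The main results are therefore given with all replicates and then without replicate 1 of each segment. Shares by gene feature, number of nearby CpGs, repeat and chromosome, and counts of genes and windows, are given with all replicates only. Neighbouring CpGs often lie on the same reads and reads may be copies of one molecule, so confidence intervals (95%, Wilson) and limits cover counting error only.

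Corpus spermatozoa had lower methylation than caput spermatozoa at many sites that are unmethylated in testicular spermatozoa, and higher methylation at a smaller number of sites that are methylated there. The coding exon of Cald1, which encodes the actin-binding protein caldesmon, promoter sites of the germ cell gene Dazl and of the signalling gene Wnt5a, and sites in the 3′ end of Shh were hypomethylated in corpus. Sites near Ptpru and Hectd3, in introns of Tunar and Snx29 and in an exon of Lrp5 were hypermethylated in corpus. The mean over all autosomal sites was 53.4%, 51.0% and 50.9% for caput replicates 1, 2 and 3, and it was 48.2%, 50.7% and 49.4% for those of corpus. All corpus samples were below all caput samples, and the difference of the group means was -2.35 percentage points (51.8% ± 1.37 in caput and 49.4% ± 1.26 in corpus, SD, n = 3; exact two-sided permutation test, p = 0.1, the smallest p that 3 samples against 3 can give). It was -1.55 percentage points without caput replicate 1 alone and -0.937 without replicate 1 of both segments.

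Logistic regression over all replicates found 1328 of the 13917 autosomal sites (9.54%) to differ by more than 25 percentage points with a Benjamini-Hochberg adjusted p below 0.01. Of these, 957 (6.88% of the sites tested) were hypomethylated and 371 (2.67%) were hypermethylated in corpus. The hypermethylated share of the differing sites was 27.9% (95% Wilson interval 25.6% to 30.4%). The median difference was -33.5 percentage points at the hypomethylated and 31.8 percentage points at the hypermethylated sites, and 8099 sites (58.2%) lay within 5 percentage points of 0. The differing sites fell into 1028 of the 9404 windows of 100 bp that held autosomal sites, and 1 of these 1028 windows held sites of both directions. With replicates 2 and 3 of each segment, 532 sites (3.82%) passed the same thresholds, 337 (2.42%) hypomethylated and 195 (1.4%) hypermethylated in corpus. The hypermethylated share was then 36.7% (32.7% to 40.8%). Leaving out caput replicate 1 alone left 574 sites, so the count rested in large part on that sample.

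**Figure D1:**
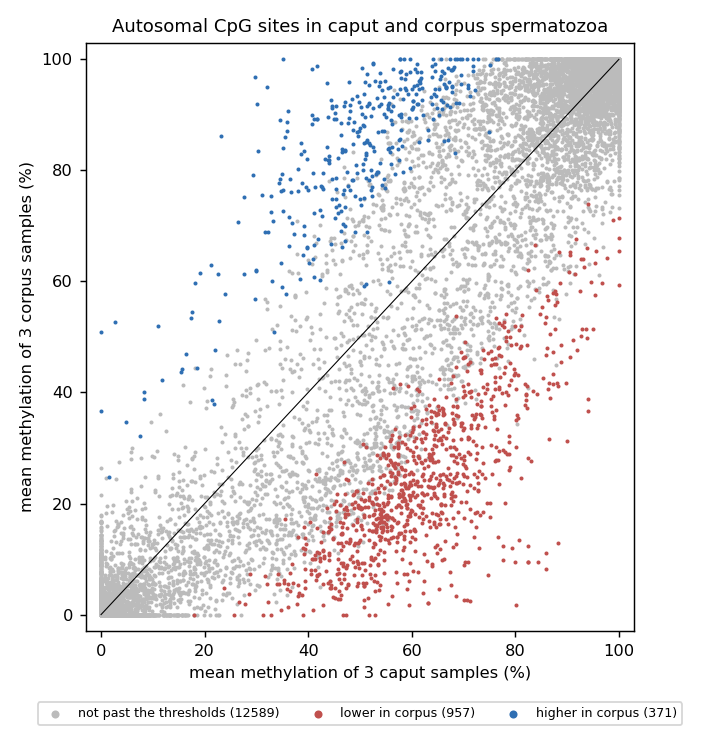
Mean methylation in percent of the 3 corpus samples against that of the 3 caput samples at each autosomal CpG site, with red points for the 957 sites hypomethylated and blue points for the 371 sites hypermethylated in corpus, grey points for all others and the line of equality in black. Most red points lie at a low corpus level and most blue points at a high corpus level.

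Logistic regression treats every read alike, whatever sample it comes from. With a term for overdispersion it called 0 sites, and 797 autosomal sites had an unadjusted p under 0.05. limma, which tests over samples, called 2 sites (0.0144% of the sites tested) that differed by more than 25 percentage points with an adjusted p below 0.05, and 816 sites had an unadjusted p under 0.05. Both sites were hypermethylated in corpus and are named here after their values were seen. The site at chr15:5186814 lies in an intron 540 bp upstream of a start site of Ttc33. No read was methylated there in any caput sample (coverage 12, 20 and 10 reads, which allows up to 25%, 15% and 30%), and methylation was 40%, 41.7% and 28.1% in the corpus replicates (limma adjusted p = 0.0143). The site at chr4:117010969 lies between genes, 8113 bp from Hectd3, which encodes a ubiquitin ligase. Its methylation was 50%, 69.7% and 55.6% in caput and 100% in each corpus replicate (limma adjusted p = 0.0294). Leaving out any one of the 6 samples gave 4 to 17 sites by limma. It called 0 sites with a pseudo-percent of 5 in place of 1 and 0 with a replicate block (883 and 674 with an unadjusted p under 0.05). All these counts of unadjusted p are near 5% of the 13917 sites, the share reached with no difference if the tests hold their nominal level. The alternative limma fit with all 12 samples had 1681 sites with an unadjusted p under 0.05, well above that share.

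All 3 corpus samples lay below all 3 caput samples at 889 autosomal sites (6.39%) and above them at 566 (4.07%). With no difference and no tied values, 3 samples lie apart from 3 others in either direction with a probability of 0.1. The 1455 sites of both directions are near that share of the 13917 sites, so their number does not by itself show a difference. The groups did not overlap at 557 of the 957 hypomethylated sites (58.2%) and at 202 of the 371 hypermethylated sites (54.4%). Both sets were chosen for a large difference, which makes such separation more likely. The hypomethylated sites averaged 84.4%, 52.2% and 50.1% in caput replicates 1, 2 and 3, and 19.004%, 32.1% and 22.4% in those of corpus. At the hypermethylated sites it was 28.7%, 57.9% and 61.1% in caput and 81.8%, 81.2% and 86.3% in corpus. Caput replicate 1 was the most extreme caput sample in both directions, and these means describe sites chosen for their difference. Testicular replicates had 15.1%, 17.4% and 16.5% at the hypomethylated sites and 89.2%, 90.3% and 90.7% at the hypermethylated sites. Cauda replicates had 14.6%, 15.2% and 14.2% at the former and 91.0%, 90.6% and 90.5% at the latter.

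Sites were then grouped by the mean of the 3 testicular samples, which is independent of the corpus and caput samples. At the 6314 sites below 20% in testicular spermatozoa, the average was 19.07%, 10.3% and 9.96% for caput replicates 1, 2 and 3, and 5.45%, 7.97% and 6.36% for those of corpus. Every corpus sample was below every caput sample, with a difference of -6.53 percentage points between the means (13.1% ± 5.16 in caput, 6.60% ± 1.28 in corpus, SD, n = 3; exact permutation test, p = 0.1). In this class 711 sites (11.3%) were hypomethylated and 4 were hypermethylated in corpus, against 230 and 17 with replicates 2 and 3. Testicular and cauda spermatozoa averaged 2.52% ± 0.227 and 2.46% ± 0.143 at these sites (SD, n = 3), so that corpus lay between caput and both of them.

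At the 1513 sites between 20% and 80% in testicular spermatozoa, methylation averaged 70.8%, 60.3% and 57.7% in caput and 49.5%, 56.9% and 52.0% in corpus. The groups did not overlap and the means differed by -10.1 percentage points (62.9% ± 6.96 and 52.8% ± 3.78, SD, n = 3; exact permutation test, p = 0.1). Of these sites 232 (15.3%) were hypomethylated and 45 (2.97%) hypermethylated in corpus, against 86 and 35 with replicates 2 and 3. Testicular and cauda means were 51.0% ± 3.54 and 49.7% ± 2.25 (SD, n = 3), within the range of the corpus samples.

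The direction was the opposite at the 6090 sites above 80% in testicular spermatozoa. Methylation averaged 84.6%, 90.9% and 91.8% in caput and 92.2%, 93.5% and 93.3% in corpus, with every corpus sample above every caput sample. The means differed by 3.92 percentage points (89.1% ± 3.93 and 93.0% ± 0.712, SD, n = 3; exact permutation test, p = 0.1). In this class 322 sites (5.29%) were hypermethylated and 14 (0.230%) hypomethylated in corpus, against 143 and 21 with replicates 2 and 3. Testicular and cauda means were 95.8% ± 0.276 and 96.1% ± 0.0889 (SD, n = 3), above every corpus sample. Without replicate 1 of each segment the differences were -2.98, -4.52 and 2.07 percentage points in the low, intermediate and high class. Leaving out caput replicate 1 alone gave -3.55, -6.16 and 1.66. The signs were those found with all replicates, and none can reach a p under 0.333 with 2 samples against 2.

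**Figure D2:**
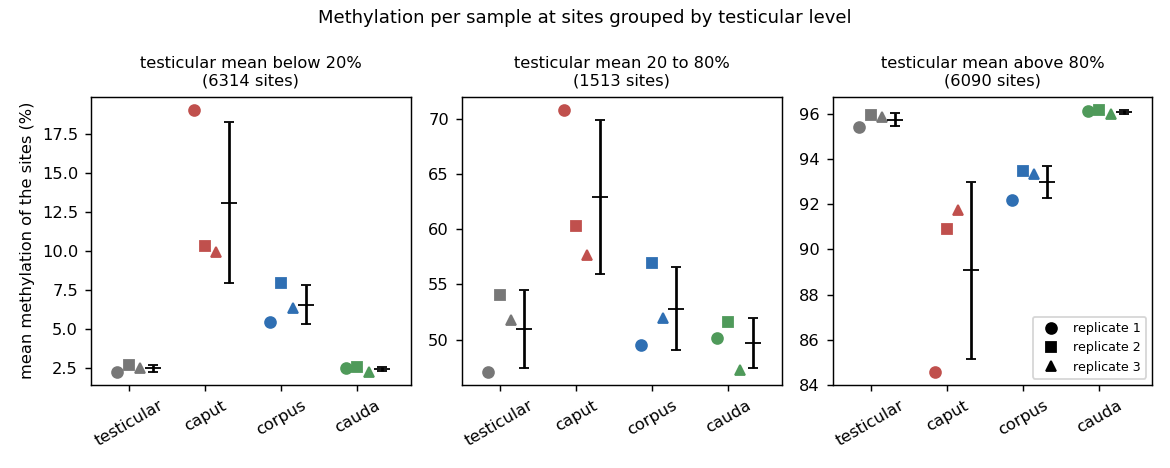
Mean methylation in percent of each of the 12 samples over sites below 20%, between 20% and 80%, and above 80% in testicular spermatozoa, each panel with its own axis range; the symbol shape gives the replicate, and bars give the mean and SD of 3 samples. Corpus samples lie between caput and testicular samples in the outer panels, and caput replicate 1 lies farthest from the testicular level in all panels.

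The 3 caput samples also differed more among themselves than the 3 corpus samples. The SD between the 3 caput replicates averaged 7.61 percentage points per site in the low class, 15.7 in the intermediate and 8.76 in the high class. Between corpus replicates it averaged 4.98, 15.2 and 6.42 percentage points. Between replicates 2 and 3 alone it was 4.35, 11.3 and 5.68 percentage points in caput and 4.24, 12.0 and 4.81 in corpus, so that part of the excess in the high class remained. It was 2.37, 11.8 and 3.74 between testicular and 2.24, 11.03 and 3.35 between cauda replicates. Across autosomal sites, which are not independent replicates, Pearson's r between a caput and a corpus sample was 0.888 on average over 9 pairs (0.777 to 0.952). It was 0.891 over the 3 pairs within caput and 0.941 over the 3 pairs within corpus (0.931 to 0.955). Caput replicates 2 and 3 had an r of 0.944 with each other, within the range of the corpus pairs. Each of them had a higher r with corpus replicate 2 (0.952 for both). Corpus replicate 2 had its highest r with corpus replicate 3 (0.955). Without caput replicate 1 the samples thus did not group strictly by segment.

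Sites were also sorted by their position in genes or between them. Of all autosomal sites, 6094 lay in a promoter (within 2 kb of a start site), 877 in another exon, 3055 in another intron and 3891 between genes. Hypomethylated sites made up 5.23% of promoter, 11.7% of exon, 5.47% of intron and 9.46% of intergenic sites, and hypermethylated sites 1.31%, 2.85%, 4.32% and 3.44%. Within the class that is low in testicular spermatozoa, 249 of 4680 promoter sites (5.32%) were hypomethylated in corpus. Outside promoters the same held for 78 of 207 exon sites (37.7%), 119 of 436 intron sites (27.3%) and 265 of 991 intergenic sites (26.7%). Differences between these features were not tested, since sites of one fragment share reads. The shares rest on all replicates, and the 711 hypomethylated sites of the low class became 230 with replicates 2 and 3.

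Mean methylation of low exon sites was 34.6% ± 13.6 in caput and 14.9% ± 3.07 in corpus, and that of low promoter sites was 7.003% ± 2.66 and 3.89% ± 0.646 (SD, n = 3; exact permutation test, p = 0.1 for each). Caput replicates 1, 2 and 3 had 50.2%, 27.6% and 25.9% at the exon sites and 10.1%, 5.66% and 5.28% at the promoter sites. Both differences thus rested in part on caput replicate 1, although the other caput samples were also above every corpus sample. Sites were also grouped by the number of CpGs within 100 bp on each side. In the low class, 22.5% of the 605 sites with 4 or fewer CpGs were hypomethylated in corpus. The share was 15.7% of the 3101 sites with 5 to 10 CpGs and 3.34% of the 2608 sites with more than 10 CpGs. Over all autosomal sites the order differed, with 5.68%, 9.11% and 3.36%. In the high class, hypermethylated sites made up 5.85% of 2582, 5.39% of 3099 and 0.978% of 409 sites. Soft-masked repeats held 15.3% of the hypomethylated, 8.63% of the hypermethylated and 15.9% of all autosomal sites. By chromosome the share of differing sites ranged from 5.41% of 703 sites on chromosome 17 to 15.9% of 511 sites on chromosome 18, and hypomethylated sites were more numerous than hypermethylated ones on each of the 19 autosomes.

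Of 2864 genes with a promoter site, 218 had a hypomethylated and 68 a hypermethylated promoter site in corpus, and 0 had both. In 218 of the 9404 windows of 100 bp at least 2 sites differed in the same direction. In 100 of these 218 windows the corpus and caput samples did not overlap at any differing site, 79 hypomethylated and 21 hypermethylated in corpus. Sites of a window share reads, and how many windows held at least 2 sites was not counted, so these counts have no share to be set against. The 8 windows with the largest mean difference in each direction are described next, with methylation as the share of methylated reads over the differing sites of the window. Their 39 differing sites had 10 to 89 reads per sample. In 2 of the 16 windows, those near Vwde and Kcng1, the counting intervals of all caput samples lay apart from those of all corpus samples. Every differing site of 12 of the 16 windows also passed the thresholds with replicates 2 and 3, and the other 4 are named beside their values. A sample with no methylated read in a window may carry up to 10.9% to 27.3%, depending on its coverage.

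Among the hypomethylated windows, the one between genes at chr6:13134301-13134400, 42750 bp from Vwde, had 100%, 65.2% and 92.3% methylation in caput replicates 1, 2 and 3. In corpus it had 5.88%, 23.3% and 0%, a mean difference of -67.8 percentage points over 2 sites. The Cald1 window at chr6:34755701-34755800, in a coding exon, held 7 differing sites. Methylation was 76.7%, 75.3% and 88.4% in caput and 0%, 10.3% and 20.4% in corpus, a mean difference of -67.5 percentage points (logistic regression, largest adjusted p of the sites 2.2e-13). Caldesmon binds actin and calmodulin and is abundant in smooth muscle. The coverage per site was 27, 11 and 16 reads in caput and 18, 38.9 and 38.6 in corpus, and the 7 sites lie between positions 34755722 and 34755748, so that reads are shared between them. The mean was 5.83% ± 6.60 in testicular and 0.843% ± 0.610 in cauda spermatozoa (SD, n = 3). The window at chr2:168311401-168311500, 29668 bp from Kcng1, a potassium channel subunit gene, had 91.7%, 50.6% and 69.6% in caput and 0%, 7.63% and 0% in corpus at 3 sites.

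**Figure D3:**
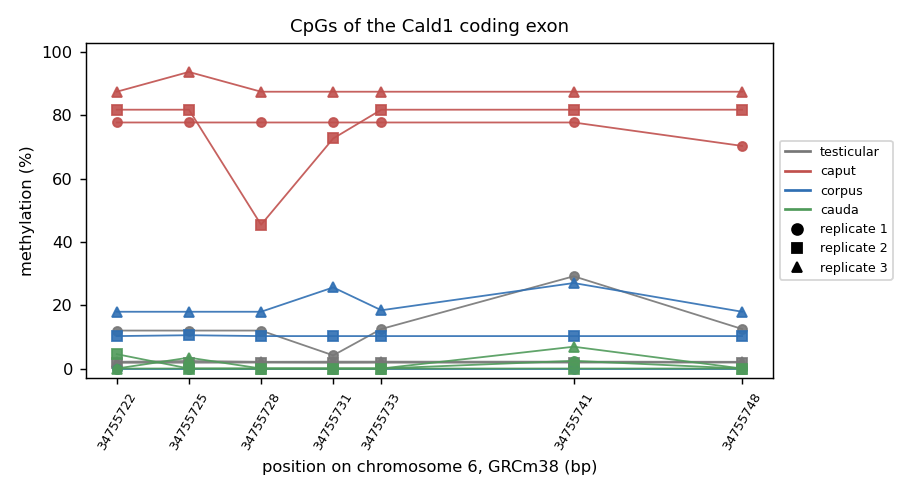
Methylation in percent at the 7 differing CpGs of the Cald1 coding exon against their position on chromosome 6, with a line for each of the 12 samples, colour for the origin and symbol shape for the replicate. The caput samples lie between 45.5% and 93.8% and the corpus samples between 0% and 27.0%, near the testicular and cauda samples.

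The remaining hypomethylated windows included promoters of 3 genes that carry only a model name. Gm15366, at chr8:19037601-19037700, had 93.8%, 46.3% and 20.8% in caput and 0%, 2.86% and 0% in corpus, a mean difference of -56.9 percentage points that was -30.9 with replicates 2 and 3. Gm4065, at chr10:118803701-118803800, had 78.6%, 80.9% and 39.3% in caput and 8.96%, 22.6% and 5% in corpus. Gm45473, at chr7:112652701-112652800, had 83.1%, 57.5% and 32.3% in caput and 4.26%, 3.41% and 0% in corpus, and 2 of its 3 sites passed with replicates 2 and 3. This window is also assigned to 2310014F06Rik. In each the caput samples were widely spread while the corpus samples were all low. The promoter of Adamts2, whose product trims procollagen, was covered at chr11:50796601-50796700, 1231 bp downstream of a start site. It had 90.9%, 25% and 70.8% in caput and 0%, 2.47% and 11.3% in corpus, and 1 of its 2 sites passed with replicates 2 and 3 (mean difference -32.2 percentage points against -54.9 with all replicates). The window at chr10:115285001-115285100, 30516 bp from Rab21, had 93.3%, 57.7% and 40.5% in caput and 0%, 11.8% and 11.4% in corpus, again with 1 of 2 sites passing with replicates 2 and 3.

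The sequences of the 8 hypomethylated windows are given to show how sparse or dense their CpGs are, on the plus strand of GRCm38 and 5′ to 3′, with the CpGs that differed in capitals.
Cald1: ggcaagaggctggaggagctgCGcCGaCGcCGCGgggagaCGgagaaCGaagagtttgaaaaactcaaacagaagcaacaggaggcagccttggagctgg
near Vwde: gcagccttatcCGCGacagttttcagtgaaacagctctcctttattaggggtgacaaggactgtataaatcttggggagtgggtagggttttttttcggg
near Kcng1: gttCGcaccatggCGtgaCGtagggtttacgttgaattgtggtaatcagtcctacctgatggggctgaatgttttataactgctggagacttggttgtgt
Gm15366: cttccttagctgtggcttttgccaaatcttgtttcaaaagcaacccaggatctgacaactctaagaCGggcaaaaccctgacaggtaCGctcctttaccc
Gm4065: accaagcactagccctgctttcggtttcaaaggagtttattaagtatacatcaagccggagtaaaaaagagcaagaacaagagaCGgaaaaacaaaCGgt
Gm45473: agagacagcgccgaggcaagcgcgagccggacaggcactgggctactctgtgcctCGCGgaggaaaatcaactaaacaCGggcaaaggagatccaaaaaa
Adamts2: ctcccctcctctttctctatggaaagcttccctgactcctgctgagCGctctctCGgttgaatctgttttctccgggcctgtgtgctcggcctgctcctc
near Rab21: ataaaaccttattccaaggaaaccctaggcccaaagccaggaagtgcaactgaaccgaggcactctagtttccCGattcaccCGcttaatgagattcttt

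Among the hypermethylated windows, each with 2 differing sites, the one at chr4:131630901-131631000 had the largest rise. It lies between genes, 138005 bp from Ptpru, which encodes a receptor tyrosine phosphatase. Methylation was 36.4%, 15.8% and 54% in caput and 95%, 97.5% and 100% in corpus. The window at chr18:81472101-81472200, 485390 bp from the zinc finger gene Sall3, had 16.7%, 50% and 40.9% in caput and 93.3%, 70.5% and 100% in corpus. That at chr9:115394101-115394200, 83725 bp from Stt3b, a subunit gene of the oligosaccharyltransferase, had 16.7%, 64.3% and 52.9% in caput and 100%, 86.4% and 87.9% in corpus. Neither of its 2 sites passed with replicates 2 and 3, where the mean difference was 28.9 percentage points against 50.5 with all replicates (logistic regression, adjusted p = 0.0250 and 0.0314). Caput values were thus intermediate and corpus values near the fully methylated state of testicular spermatozoa, which averaged 90.6% ± 2.87, 89.9% ± 11.4 and 96.9% ± 1.11 in these windows (SD, n = 3).

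An intron of Tunar, at chr12:105340501-105340600, had 18.2%, 61.4% and 42.9% in caput and 83.3%, 93.3% and 94.2% in corpus. An intron of the sorting nexin gene Snx29, at chr16:11469001-11469100, had 10.8%, 49.4% and 55.7% in caput and 96.3%, 76.5% and 90% in corpus. At chr4:117010901-117011000, near Hectd3, the values were 49.1%, 70.3% and 59.7% in caput and 96.7%, 100% and 100% in corpus. This window held one of the sites that limma called. At chr10:69044401-69044500, 106992 bp from Rhobtb1, methylation was 29.6%, 55.8% and 68.8% in caput and 90.7%, 85.9% and 97.3% in corpus. At chr18:57962801-57962900, 35653 bp from the cotransporter gene Slc12a2, it was 63.2%, 53.4% and 39.5% in caput and 95%, 84.9% and 87.8% in corpus. Caput replicate 1 was not the most extreme caput sample in the windows near Ptpru and Slc12a2.

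**Figure D4:**
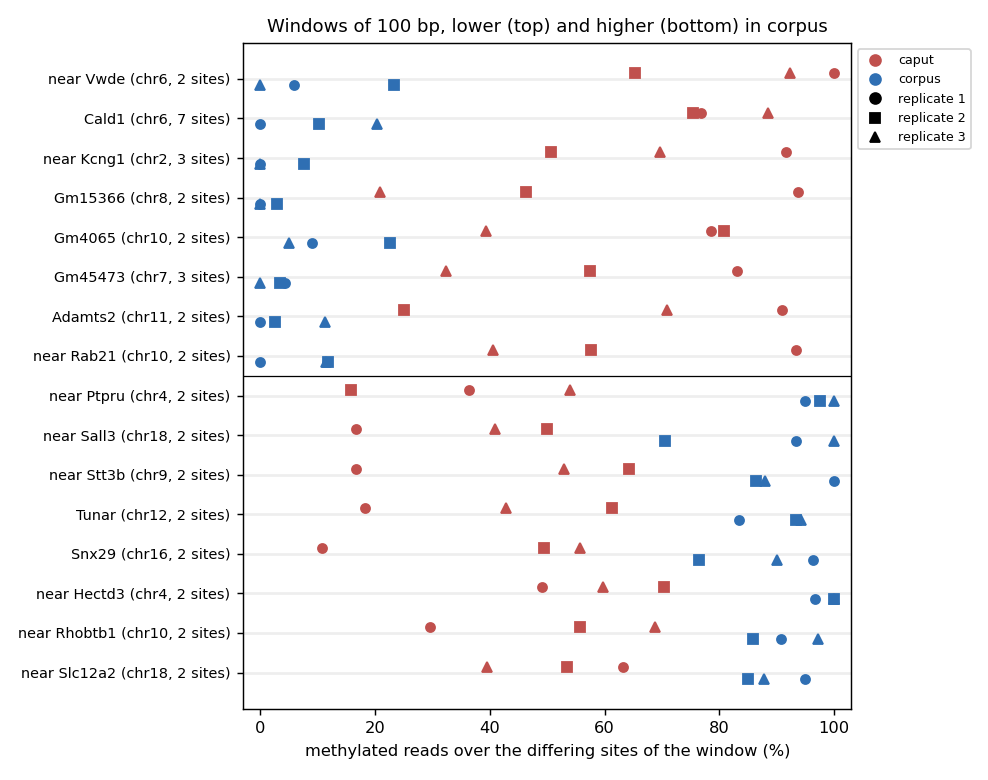
Share of methylated reads in percent over the differing sites of the 8 most hypomethylated (top) and the 8 most hypermethylated (bottom) windows of 100 bp, with red symbols for caput, blue symbols for corpus and the symbol shape for the replicate. Corpus samples lie between 0% and 23.3% (top) or between 70.5% and 100% (bottom), and caput samples spread more widely; the windows were chosen for groups that do not overlap.

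Of the hypermethylated windows, those in introns and those near Ptpru and Hectd3 are given to set their CpGs beside those of the hypomethylated windows, on the plus strand of GRCm38 and 5′ to 3′, with the CpGs that differed in capitals. Each holds 2 CpGs that differed.
near Ptpru: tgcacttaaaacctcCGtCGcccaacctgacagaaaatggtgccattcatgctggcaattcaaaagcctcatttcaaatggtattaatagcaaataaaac
Tunar: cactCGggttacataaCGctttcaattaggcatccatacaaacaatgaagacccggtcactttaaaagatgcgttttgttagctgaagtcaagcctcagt
Snx29: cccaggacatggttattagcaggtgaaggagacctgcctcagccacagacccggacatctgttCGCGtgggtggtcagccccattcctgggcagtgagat
near Hectd3: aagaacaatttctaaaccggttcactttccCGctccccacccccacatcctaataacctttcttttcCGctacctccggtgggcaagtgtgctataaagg

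The single sites with the largest differences were chosen, like the windows, among sites where the groups did not overlap, and some of them lie in the windows described. The site at chr13:114185895, between genes, had 100%, 73.9% and 66.7% in caput and 0%, 5.26% and 0% in corpus, a pooled difference of -79.7 percentage points (logistic regression, adjusted p = 1.2e-16). In caput replicate 1 and corpus replicate 1 it was covered by 23 and 11 reads, with Wilson intervals of 85.7% to 100% and 0% to 25.9%. The site at chr4:117509005, 11953 bp from Rnf220, had 90.5%, 74.1% and 100% in caput and 0%, 38.5% and 0% in corpus. Unlike the others it was intermediate in testicular spermatozoa (62.6% ± 17.7, SD, n = 3). The other 3 of the 5 largest falls lay in the windows in Cald1 and near Vwde and Kcng1.

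Of the 5 largest rises, the largest lay in the window near Ptpru. A coding exon of Lrp5, which encodes a co-receptor for Wnt proteins, had 28%, 61.9% and 15.4% in caput and 100% in each corpus replicate at chr19:3652157. Its coverage was 25, 21 and 13 reads in caput and 18, 21 and 10 in corpus. The promoter of Wars, which encodes the tryptophanyl-tRNA synthetase, had 5.56%, 25% and 60% in caput and 100%, 90.7% and 85.3% in corpus at chr12:108887389. The site at chr4:139175055, 17844 bp from Capzb, had 0%, 52.2% and 52.2% in caput and 56.3%, 79.2% and 93.2% in corpus, and its difference of 57.0 percentage points was 33.7 with replicates 2 and 3. The site at chr6:127406432, 40408 bp from Parp11, had 27.3%, 42.3% and 0% in caput and 100%, 83.3% and 75% in corpus. All 10 sites also passed the thresholds with replicates 2 and 3, and limma's adjusted p at them ranged from 0.157 upwards.

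Of 14 listed genes, each with a locus that the study assayed or ranked, 9 held 27 sites of the table, matched by gene and not by locus. The list, chosen with earlier results of these data known, lacks Ccbe1, which the study also ranked and in which no site of the table lay. Of the 27 sites 10 were hypomethylated and 2 hypermethylated in corpus (44.4% of the sites, against 9.54% of all autosomal sites), and the median difference was 1.75 percentage points against 0 for all sites. The study chose these 9 genes on the same samples, except H19, which it included to check purity, so the counts are not independent evidence. The sites in the Cald1 exon and in Susd1 lie in regions that the study ranked, while those in Notch2, Nfatc2 and Ankrd36 and the Cald1 promoter site lie outside the ranked regions. Whether the sites in D1Pas1, Capn2, Ldb3 and H19 lie in the stretches assayed was not tested. Besides the 7 sites of the Cald1 exon, 3 sites in the promoter of D1Pas1, a testis-expressed RNA helicase gene of the DEAD-box family, were hypomethylated in corpus. They are also assigned to the gene model Gm37912. Over these 3 sites methylation was 90.0%, 48.7% and 71.1% in caput and 20.7%, 56.8% and 0% in corpus. The groups overlapped, and none of the 3 sites passed the thresholds with replicates 2 and 3 (differences of -19.6 to -9.56 percentage points).

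Notch2, a receptor of the Notch pathway, had a hypermethylated site in a coding exon at chr3:98147408, with 50%, 82.6% and 40% in caput and 70%, 100% and 100% in corpus. It also passed without replicate 1. In an intron of Susd1 all 6 sites had higher values in every corpus than in every caput sample, and 1 of them, at chr4:59360946, passed the threshold on the difference with 25.2 percentage points. None passed with replicates 2 and 3, where the difference at this site was 19.2 percentage points. Over the 6 sites methylation was 8.19%, 29.4% and 20.9% in caput and 45.2%, 38.7% and 42.1% in corpus, with 69 to 99 reads per site. The Cald1 promoter site at chr6:34761744 had 94.4%, 97.9% and 89.4% in caput and 100%, 94.9% and 100% in corpus and did not pass, unlike the exon. The sites in Capn2, Ankrd36, Ldb3 and Nfatc2 did not pass either, which says nothing of the ranked regions of Ankrd36 and Nfatc2.

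Meiotic and germline genes are, in many cases, switched by promoter methylation and stay unmethylated in the male germ line. Of 36 sites in 13 such genes, 7 were hypomethylated and 0 hypermethylated in corpus (19.4% of the sites, against 9.54% of all autosomal sites, 6.88% hypomethylated), and the median difference was -0.779 percentage points against 0. Of these sites 4 were hypomethylated with replicates 2 and 3 (11.1% of the list, against 3.82% of all autosomal sites). The promoter of Dazl, an RNA-binding protein that germ cells need, was hypomethylated at all 3 of its sites. Methylation over these was 76.6%, 64.0% and 46.0% in caput and 34.7%, 25.5% and 11.7% in corpus, and 5.23% ± 4.72 in testicular spermatozoa (SD, n = 3). The groups did not overlap. Tex14, needed for the bridges between germ cells, was hypomethylated at 2 of 6 sites, which lie in the promoter range of both Tex14 and the DNA repair gene Rad51c and cannot be assigned to one of them. At one of these, chr11:87405271, methylation was 100%, 48.1% and 45.9% in caput and 0%, 27.3% and 20% in corpus, and neither site passed with replicates 2 and 3 (differences of -21.5 and -19.5 percentage points).

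Among 15 sites of 6 spermatid and sperm genes, 4 were hypomethylated and 0 hypermethylated in corpus (26.7% against 9.54% of all autosomal sites; median difference 0 in both). They were the 3 sites of D1Pas1 and 1 site in Izumo1, whose product is needed for fusion with the egg. The share thus rests mostly on D1Pas1, which the study had chosen on the same samples, and does not describe sperm genes in general. The Izumo1 site, at chr7:45627542, lies within an Izumo1 transcript and 54 bp downstream of the start site of Rasip1, so it cannot be assigned to one of them. Methylation there was 92.3%, 83.3% and 52.6% in caput and 46.7%, 6.25% and 72.7% in corpus. One corpus sample thus lay within the caput range and the others below it. No site of this list passed with replicates 2 and 3, although the difference at chr7:45627542 was then -34.2 percentage points against -35.9 with all replicates (logistic regression, adjusted p = 0.0383).

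Developmental regulators are mostly CpG-rich and unmethylated in sperm. They were represented by 259 sites in 77 of 154 listed genes, 239 of them in the low class. In corpus 14 of the sites were hypomethylated and 1 hypermethylated (5.79%, below the 9.54% of all autosomal sites; median difference 0 in both). The counts were 11 and 7 with replicates 2 and 3 (6.95%, above the 3.82% of all autosomal sites). Of the 7 hypermethylated sites, 5 lie in the promoter range of both Hoxa3 and Hoxa4, and none of these passed with all replicates. Over the 9 sites of Hoxa4 methylation was 18.6%, 0% and 0% in caput and 3.79%, 29.9% and 15.4% in corpus, so the groups overlapped. All 5 sites of Shh, which encodes a secreted morphogen, were hypomethylated, with 85.7%, 57.1% and 37.8% in caput and 9.16%, 22.2% and 17.6% in corpus. They lie in an untranslated region near the 3′ end of Shh, which is also the promoter of the antisense transcript 9530036O11Rik, and not at a start site of Shh. Coverage was high, for example 140, 142 and 123 reads in caput and 75, 134 and 116 in corpus at chr5:28457808, where the pooled difference was -47.9 percentage points (logistic regression, adjusted p = 5.19e-37). With all replicates the 5 differences were -47.9 to -40.3 percentage points, and with replicates 2 and 3 they were -32.8 to -25.7, which still passed.

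Wnt5a, which encodes a secreted Wnt ligand, was hypomethylated at 3 of 6 promoter sites, which are also assigned to the gene model Gm2670. At chr14:28509333 methylation was 90.8%, 69.6% and 51.8% in caput and 16.7%, 30.5% and 19.4% in corpus, with 141, 102 and 56 and with 42, 141 and 36 reads. The groups did not overlap at any of the 3 sites, and all 3 passed without replicate 1. The other 3 sites, closer to the start site, did not pass.

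The promoter windows of Dazl and Wnt5a that hold these sites are shown because they combine a germ cell and a signalling gene with the same direction of difference. They are on the plus strand of GRCm38, 5′ to 3′, with the differing CpGs in capitals (Dazl itself lies on the minus strand), at chr17:50294101-50294200, chr17:50294201-50294300 and chr14:28509301-28509400.
Dazl, part nearer the start site: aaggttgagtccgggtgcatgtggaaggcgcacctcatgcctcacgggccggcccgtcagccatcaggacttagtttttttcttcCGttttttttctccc
Dazl, part farther upstream: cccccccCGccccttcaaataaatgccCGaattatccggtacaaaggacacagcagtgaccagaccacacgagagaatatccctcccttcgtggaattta
Wnt5a: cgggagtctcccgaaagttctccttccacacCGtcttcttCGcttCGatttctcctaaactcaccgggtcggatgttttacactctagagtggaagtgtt

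Outside the gene lists, some genes held several differing sites, and those given here were chosen after their values were seen. Tfap2b, which encodes a developmental transcription factor, was hypomethylated at 7 exon sites, out of 12 sites in the gene. The share of methylated reads over these was 79.0%, 23.03% and 41.7% in caput and 1.54%, 6.76% and 8.68% in corpus. Clasp1, whose product binds microtubule ends, was hypermethylated at 3 intron sites, out of 7 sites in the gene. Over these 3 sites it had 49.6%, 58.2% and 63.5% in caput and 92.3%, 92.6% and 99.1% in corpus. At their differing sites, which were chosen for their difference, both genes had corpus values apart from all caput values. For Tfap2b 3 of the 7 sites passed with replicates 2 and 3, and the mean difference over the 7 was then -26.4 percentage points against -38.7 with all replicates. All 3 differing sites of Clasp1 passed. Lima1 and Llgl1 also had 3 hypermethylated sites each, with the groups apart at all of them. None of these passed with replicates 2 and 3. Their mean differences were then 21.3 and 20.2 percentage points against 30.1 and 29.6 with all replicates.

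Genes of the DNA methylation machinery had 9 sites in 3 genes, of which 2 were hypomethylated and 0 hypermethylated (22.2% against 9.54% of all autosomal sites; median difference 1.11 percentage points against 0). Both belonged to Tet1, which encodes an enzyme that oxidises methylcytosine. At chr10:62885366 methylation was 80.8%, 43.6% and 40% in caput and 12.0%, 23.1% and 17.6% in corpus, with 125 to 227 reads. At chr10:62891116 it was 75.9%, 33.1% and 48.3% in caput and 15.8%, 16.6% and 21.5% in corpus. The groups did not overlap at either site. With replicates 2 and 3 their differences were -21.5 and -20.3 percentage points, below the threshold.

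Imprinted genes, methylated on only the maternal or the paternal copy in somatic cells, were used to check the germ line origin. The H19 site at chr7:142575817, methylated on the paternal copy, had 87.1%, 93.2% and 93.7% in caput and 97.1%, 94.1% and 89.3% in corpus, with 68 to 205 reads. It was thus close to the fully methylated state in all samples and did not pass. The Igf2 sites at chr7:142664377 and chr7:142664387 had 38.1% each in caput replicate 1, 15.7% and 11.8% in replicate 2 and 0% in replicate 3. In corpus they had 0% except for 9.68% at the former in replicate 3, and neither passed. The paternally methylated list had 7 sites in 3 genes, with 0 differing in either direction, against 9.54% of all autosomal sites (median difference 0 in both). None of its sites lay in Meg3 or Zdbf2. Its sites were matched by gene and not by imprinted region, and 6 of the 7 were in the class low in testicular spermatozoa. The H19 site alone was in the high class (testicular mean 95.7%), so the others do not check paternal methylation.

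The maternally methylated list had 19 sites in 10 genes, of which 1 was hypomethylated and 0 hypermethylated in corpus (5.26% against 9.54% of all autosomal sites; median difference 0 in both). This site, at chr2:174287639 in the Gnas and Nespas locus, had 57.4%, 13.8% and 47.4% in caput and 8.70%, 9.76% and 19.4% in corpus, and did not pass with replicates 2 and 3 (difference -16.1 percentage points). The Mcts2 promoter, methylated on the maternal copy, had 73.3%, 21.7% and 19.4% in caput and 0%, 10.3% and 0% in corpus at chr2:152687059, a pooled difference of -23.6 percentage points that did not pass. Mcts2 is named here after its values were seen. The sites of this list were also matched by gene and not by imprinted region. By testicular level 14 were in the low, 1 in the intermediate and 4 in the high class. Trappc9 held 7 of the 19 sites, with a mean of 54.1% in testicular and 48.1% in cauda spermatozoa, and the Peg10 exon site had a testicular mean of 83.3%. The mean over the 19 sites, which thus does not measure maternal imprints alone, was 44.8%, 25.7% and 30.3% in caput and 23.8%, 25.6% and 28.3% in corpus. Caput replicate 1 was the highest sample, and the part of DNA from cells outside the germ line in this was not tested. No site of the table lay in Snrpn, Peg3 or Mest.

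Genes marking other cells that a sort could hold gave values in both directions. Epididymal epithelial genes had 23 sites in 6 of 57 listed genes, of which 3 were hypermethylated and 0 hypomethylated in corpus (13.04% against 9.54% of all autosomal sites, 2.67% hypermethylated; median difference 0 in both). All 3 belonged to Krt18, a keratin gene of simple epithelia, whose promoter site at chr15:102029529 had 46.5%, 45.8% and 46.7% in caput and 67.7%, 76.3% and 74.1% in corpus. The testicular and cauda means there were 96.5% ± 3.06 and 96.1% ± 3.62 (SD, n = 3). The caput samples lay close to each other at this site, including caput replicate 1. No Krt18 site passed with replicates 2 and 3, while the differences at the 3 sites were then 22.3, 28.8 and 29.2 percentage points against 30.7, 25.9 and 26.6 with all replicates (logistic regression, adjusted p from 0.0208 to 0.117). A further Krt18 site, at chr15:102029521, turned from 8.12 to -7.05 percentage points without replicate 1 and passed in neither comparison. At the 6 sites of Epcam the differences had the opposite sign, from -21.0 to -1.73 percentage points, and none passed. Methylation over them was 92.7%, 74.5% and 84.5% in caput and 100%, 77.9% and 54.4% in corpus, so the groups overlapped. The mean over the 23 sites of the list was 38.1%, 37.9% and 37.7% in caput and 46.7%, 41.9% and 33.4% in corpus, so the list as a whole overlapped between segments.

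Stromal, muscle and endothelial genes had 32 sites in 10 of 39 genes, with 10 hypomethylated and 0 hypermethylated (31.3% against 9.54% of all autosomal sites; median difference -0.401 percentage points against 0). Of these 7 were the Cald1 exon sites, the only ones of the list to pass with replicates 2 and 3. Without them 3 of 25 sites differed (12.0%). Pecam1, an adhesion protein of endothelial cells, had 2. Of these chr11:106724327 had 96.2%, 81.8% and 37.9% in caput and 0%, 34.8% and 33.3% in corpus. Its difference was -40.7 percentage points, and -15.9 with replicates 2 and 3. At the other, chr11:106724330, the difference was -48.6 percentage points. It was -25.6 with replicates 2 and 3, where the site did not pass. The mean over the 32 sites was 66.2%, 63.5% and 62.9% in caput and 39.7%, 46.7% and 47.3% in corpus, with the groups apart. Without the 7 Cald1 sites, which was computed after seeing the data, it was 63.3%, 60.2% and 55.7% in caput and 50.9%, 56.9% and 54.8% in corpus, and the groups overlapped. Flt1, which encodes a receptor for vascular endothelial growth factor, had higher values in corpus over its 7 sites, with 6.96%, 8.20% and 8.09% in caput and 13.5%, 17.3% and 15.03% in corpus, and none of them passed. Immune cell genes had 29 sites in 11 of 46 genes, with 2 hypomethylated and 1 hypermethylated (10.3%, close to the 9.54% of all autosomal sites; median difference 0 in both). The last was the promoter site of the transcription factor gene Runx3 at chr4:135154895, with 25%, 62.8% and 47.6% in caput and 27.3%, 90.9% and 95.8% in corpus. The intron site of Arhgap15 at chr2:44104627 had 81.8%, 34.6% and 90% in caput and 0%, 61.9% and 20% in corpus and did not pass with replicates 2 and 3 (difference -10.9 percentage points against -30.5 with all replicates), unlike the Runx3 site. The groups overlapped at both, and the part of such cells in the results was not tested.

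The Krt18 window at chr15:102029501-102029600, in a coding exon within the promoter range, is shown on the plus strand of GRCm38, 5′ to 3′, with its differing CpGs in capitals, since its sites differed in the opposite direction from those of Dazl and Wnt5a.
Krt18: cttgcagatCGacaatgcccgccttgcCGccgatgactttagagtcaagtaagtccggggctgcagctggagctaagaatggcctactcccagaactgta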

How the data were processed

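Methylation was measured by RRBS in 12 samples of sorted spermatozoa, 3 per origin. The authors trimmed the reads with Trim Galore (version 0.4.1), aligned them to GRCm38 with Bismark (version 0.16.1) and used methylKit, as the submitters' processing notes and methods state. The deposited count table holds counts per sample and site, namely the coverage and its split by methylation, not normalized. The authors' lists of differing sites and regions hold their own differences, p-values and q-values and were not used.

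Percent methylation was 100 times methylated reads over coverage. A likelihood-ratio test in a logistic regression compared corpus with caput samples, with p-values adjusted by the Benjamini-Hochberg method over all 14149 sites. limma was run on log2((methylated percent + 1)/(unmethylated percent + 1)). Sample means were compared by exact two-sided permutation tests. The procedures were tested on simulated data. Genes came from GENCODE M21, repeats from lower-case bases of the GRCm38 sequence. Sequences were read from the same assembly.

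Named were the 8 windows and 5 single sites with the largest difference in each direction among those with the groups apart, sites in genes of the study's loci, the 2 genes with the most differing sites in each other list, and 5 imprinted genes. The members and lists were chosen with earlier results of these data known. Alternatives were an overdispersion term, stricter thresholds, a coverage of at least 20 reads, windows of 100 bp, medians, classes from cauda samples, a replicate block and leaving out each sample. The software was limma 3.58.1 in R 4.3.3, and scipy 1.17.1, numpy 2.4.6, pysam 0.24.0, pandas 2.3.3 and matplotlib 3.10.9 in Python 3.11.15.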

Additional observations from a re-analysis of the deposited data

Results flagged for a closer look

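Sites of the sex chromosomes were not part of the comparison, and are given because some of them differed as well, at a share close to the 9.54% of autosomal sites. Of 207 sites of the X chromosome, 18 (8.70%, 95% Wilson interval 5.57% to 13.3%) passed the same thresholds between corpus and caput, 13 hypomethylated and 5 hypermethylated in corpus. Among these 18 sites were 3 in the promoter of Rlim, a ubiquitin ligase gene, such as that at chrX:103982601 with 96.9%, 34.1% and 36.4% in caput replicates 1, 2 and 3 and 8.89%, 13.8% and 17.0% in corpus. An exon of Ccdc160 also held 3, such as that at chrX:52798592 with 100%, 23.1% and 39.6% in caput and 0%, 13.3% and 11.1% in corpus. Both genes are named after their values were seen, and none of these 6 sites passed with replicates 2 and 3 (differences of -19.8 to -16.6 percentage points in Rlim and -22.1 to -19.0 in Ccdc160). In that comparison 6 sites of the X chromosome passed (2.90%, against 3.82% of autosomal sites). Of 25 sites of the Y chromosome, 0 passed, with an upper bound of 13.3%.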

How the results depend on the processing

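The logistic regression with all replicates called 1328 autosomal sites. It called 0 with an overdispersion term (797 with an unadjusted p under 0.05), 315 above 40 percentage points, 439 of the 5065 sites with at least 20 reads in every sample, 496 with reads thinned at random to 10 per site and sample (an alternative added after seeing the data), and 574 to 1812 without one replicate, the lowest without caput replicate 1. With replicates 2 and 3 it called 532, and 0 with an overdispersion term (164 with an unadjusted p under 0.05), 127 above 40 percentage points and 281 of 8224 sites with at least 20 reads. Fewer sites or reads, or a stricter threshold, lower these counts by construction; for the overdispersion term the cause was not tested. The other alternatives gave counts within 1.5 times.

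limma called 2 sites, 0 with a pseudo-percent of 5 (883 with an unadjusted p under 0.05) and 1 with at least 20 reads. It called 8 with all 12 samples in the fit (1681 with an unadjusted p under 0.05), 7 with replicates 2 and 3, and 4 to 17 without one replicate. The groups lay apart at 1455 sites, at 483 by more than 10 percentage points and at 695 with at least 20 reads. The hypermethylated share of 27.9% was 31.7% with windows counted once, 36.7% with replicates 2 and 3, 28.0% with thinned reads and 24.3% to 31.8% without one replicate.

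Mean methylation kept its direction in all 4 groups of sites under every alternative run, except that the median over sites of the low class gave a difference of 0 (0% in both segments). Since no p could pass 0.05 in this design, this says nothing about significance. Without one replicate the differences ranged from -2.99 to -1.55 percentage points over all sites, -8.11 to -3.55 in the low, -12.7 to -6.16 in the intermediate and 1.66 to 5.25 in the high class, each nearest to 0 without caput replicate 1.

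Samples with the same replicate number did not deviate together from their group means (correlations -0.0754, -0.108 and 0.0466). With 3 samples per segment this cannot show whether they came from the same mice, and the labels name no pool. With a replicate block, 1288 sites were called with all replicates and 519 with replicates 2 and 3, limma called 0 (674 with an unadjusted p under 0.05), and exact sign-flip permutation tests over replicate numbers gave p = 0.25 for each mean, the smallest they allow.

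Of 106 named sites 75 passed the thresholds, and 52 of these passed without each sample in turn, with replicates 2 and 3 and with the replicate block. Of those that did not pass, the sign turned at 7 sites. Without one sample the difference ranged from -0.324 to 3.57 percentage points at the H19 site, from -3.80 to 12.2 and from -0.915 to 5.08 at chr11:5597023 and chr11:5597028 in Ankrd36, from -4.20 to 0.262 at chr2:168510169 in Nfatc2, from -8.93 to 16.0 at chr15:102029521 in Krt18 and from -1.28 to 6.97 at chr10:62819160 in Tet1. With replicates 2 and 3 it was -1.21 at the H19 site, -2.15 at chr11:5597023, -7.05 at chr15:102029521 and 3.08 at chr10:62879833 in Tet1. The cause was not tested. At the median coverage of corpus replicate 1, a site with no methylated read allows up to 15%.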
